A study of Mus musculus with 13 samples.

Results

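The genes described are Ccl3, Ccl4, Ccl5 and Xcl1, chemokine ligands that activated T cells secrete. They were chosen by name, with earlier results of these data known. For each, the probe set of the platform annotation that names that symbol alone was taken. All 4 of 4 were found among the 22180 genes with such a probe set. The values come from CD4+ T cells of a parent strain responding to F1 host antigens in mice, a setting used to study graft-versus-host disease. Splenocytes of C57Bl/6 donors, labelled with CFSE (a dye diluted at each division), were transferred into B6D2F1 hosts aged 10 to 12 weeks. Donor CD4+ cells from spleen and lymph node that had divided at least 2 times were taken at 72 h with CD4 microbeads and a cell sorter.

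The 3 groups differed in what the host received by intraperitoneal injection. The vehicle group (4 arrays) was given vehicle daily from day 0 to day 2. The TCDD group (4 arrays) received 15 µg/kg of TCDD (dioxin) on day 0 only, and the Cl-BBQ group (5 arrays) 10 mg/kg of Cl-BBQ daily over the same days. Both compounds bind the aryl hydrocarbon receptor (AhR), which small molecules turn into an active transcription factor. Doses and schedules differ between the compounds, and the host as well as the donor cells was exposed. The labels call the arrays biological replicates, without saying whether each array is 1 mouse.

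Chemokines are small secreted proteins that draw leukocytes along a gradient. Ccl3 (MIP-1 alpha) and Ccl4 (MIP-1 beta) draw monocytes and activated T cells, and the receptors of Ccl3 include Ccr1. The receptors of Ccl5 (RANTES) include Ccr1 and Ccr3, and it is made late and for long periods by effector T cells. Xcl1 (lymphotactin) belongs to the XC class, which lacks one of the disulfide bonds of the CC chemokines, and acts on Xcr1 of cross-presenting dendritic cells. In T and natural killer cells these ligands are often secreted together with interferon gamma. In the RefSeq table of assembly GRCm38.p6, Ccl3, Ccl4 and Ccl5 lie in a chemokine cluster on chromosome 11 and Xcl1 on chromosome 1. Ccl3 and Ccl4 are neighbours with overlapping annotated spans, and the chemokine genes Ccl9 and Ccl6 lie between Ccl5 and that pair.

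Promoter sequences were matched for 2 of the 4 genes, Xcl1 and Ccl3, in the RefSeq promoter table (GRCm38.p6), and are shown because their upstream regions can be read beside the response to an AhR ligand. Each is the 250 bases upstream of the annotated start, 5′ to 3′, with matches to the NFAT core GGAAA on either strand in capitals, which read TTTCC here.
Xcl1, chr1:164935523-164935772, minus strand: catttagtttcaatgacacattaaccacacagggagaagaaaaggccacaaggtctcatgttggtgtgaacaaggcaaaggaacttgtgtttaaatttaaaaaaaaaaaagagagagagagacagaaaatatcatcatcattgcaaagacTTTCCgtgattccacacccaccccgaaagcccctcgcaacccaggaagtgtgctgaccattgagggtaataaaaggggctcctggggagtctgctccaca
Ccl3, chr11:83649379-83649628, minus strand: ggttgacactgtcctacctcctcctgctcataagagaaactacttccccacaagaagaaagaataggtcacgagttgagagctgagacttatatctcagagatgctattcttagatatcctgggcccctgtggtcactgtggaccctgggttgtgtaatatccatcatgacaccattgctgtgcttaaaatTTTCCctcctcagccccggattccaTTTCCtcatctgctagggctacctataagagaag

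The NFAT core, bound by the calcium-driven factors of T cell activation, was found once in the Xcl1 window and 2 times in the Ccl3 window, and 55.6% of 32851 promoter windows of that length hold it. Searched on both strands, the core of the AhR response element GCGTG (28.2% of windows), the AP-1 motif TGANTCA (6.75%), the cyclic AMP response element TGACGTCA (1.55%), the TATA motif TATAAA (12.4%), the E-box CACGTG (6.02%) and the NF-kappaB consensus (7.25%) had no match in either window. No matches overlapped. A match is a string of letters and not a measured binding site.

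Array medians lay between 4.27 and 4.33 on the log2 scale and array-to-array correlations between 0.943 and 0.976. Cd4 averaged 10.52 on vehicle, 10.58 on TCDD and 10.58 on Cl-BBQ arrays. The summed level (log2 of the sum of linear values) of 7 CD4 T cell markers was 13.98 to 14.24 on vehicle arrays, 14.28 to 14.34 on TCDD arrays and 14.28 to 14.38 on Cl-BBQ arrays, so it was lower on every vehicle array than on every treated array. In the lists of other cell types, markers below the floor on all arrays (the floor is 4.31, the median of all values) were Adgre1, Lyz2 and Cd14 of 8 macrophage and monocyte markers, Klrc2 and Klre1 of 4 natural killer cell markers, Pf4 and Ppbp of 4 platelet markers, S100a8, Ly6g and Camp of 6 neutrophil markers, Itgax, Flt3 and Xcr1 of 6 dendritic cell markers, Ms4a1 and Ebf1 of 5 B cell markers, and Cpa3, Mcpt8 and Fcer1a of 4 mast cell and basophil markers. The remaining markers of these lists, and both CD8 T cell markers, were above the floor on some or all arrays.

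With TCDD, transcripts of Ccl4, Ccl5 and Xcl1 rose and Ccl3 did not pass the test. In the comparison with vehicle, 3 of the 4 members were called higher and none lower, where 3.21% of 12710 tested genes were called higher, 3.5% lower and 6.71% in either direction (limma, Benjamini-Hochberg adjusted p under 0.05). The median log2 difference of the 4 members was 0.86, against -0.00089 over all tested genes. Without any one of the vehicle or TCDD arrays 0 to 2 members were called, and none was called without TCDD replicate 3. In bulk RNA, a change in the number of cells that make a transcript and a change in the amount per cell cannot be told apart.

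With Cl-BBQ the same 3 members were called higher and Ccl3 again did not pass. The background was 5.31% of tested genes called higher, 6.03% lower and 11.3% called in either direction. The median log2 difference of the 4 members was 1.10, against -0.01 over all tested genes. Both comparisons share the 4 vehicle arrays, so their results for a gene are not independent.

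Ccl5, whose product recruits T cells and monocytes, had log2 expression of 7.01, 6.61, 6.56 and 6.71 on the 4 vehicle arrays. On the 4 TCDD arrays it stood at 7.69, 7.01, 8.03 and 8.04, and on the 5 Cl-BBQ arrays at 8.07, 7.94, 7.50, 8.39 and 8.13. Every treated array lay above every vehicle array, although TCDD replicate 2 lay just above vehicle replicate 1. The vehicle mean was 6.72 ± 0.20 (SD, n = 4) and the TCDD mean 7.69 ± 0.48 (SD, n = 4), a log2 difference of 0.97 ± 0.22 SE, or 1.96-fold (95% interval 1.41 to 2.72; limma, adjusted p = 0.0138). With Cl-BBQ the mean was 8.005 ± 0.33 (SD, n = 5), a log2 difference of 1.28 ± 0.21 SE, or 2.43-fold (95% interval 1.78 to 3.32; limma, adjusted p = 0.000673). Without TCDD replicate 3 the TCDD call was lost (log2 difference 0.86, limma, adjusted p = 0.0504), while the Cl-BBQ call held without any one array.

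Ccl4 had log2 expression of 5.74, 5.09, 6.25 and 5.55 with vehicle. It stood at 6.98, 6.65, 6.76 and 6.72 with TCDD, and at 6.00, 7.66, 6.84, 6.65 and 6.88 with Cl-BBQ. All 4 TCDD arrays lay above all vehicle arrays and close to each other, whereas the Cl-BBQ arrays held both the lowest and the highest treated values and replicate 1 lay below vehicle replicate 3. The mean rose from 5.66 ± 0.48 (SD, n = 4) to 6.78 ± 0.14 (SD, n = 4) with TCDD, 2.18-fold (log2 difference 1.12 ± 0.28 SE; limma, adjusted p = 0.0268). With Cl-BBQ it was 6.81 ± 0.60 (SD, n = 5), 2.22-fold (log2 difference 1.15 ± 0.27 SE; limma, adjusted p = 0.0106). The TCDD call was lost without any one of 7 arrays, namely vehicle replicates 1, 2 and 4 or any TCDD replicate, with a log2 difference between 0.93 and 1.16, the highest adjusted p being 0.0893 without vehicle replicate 2. The Cl-BBQ call held without any one array.

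Xcl1 had log2 expression of 6.28, 5.88, 5.43 and 5.34 with vehicle, 6.35, 6.75, 6.49 and 6.36 with TCDD, and 6.17, 6.67, 6.74, 6.74 and 6.19 with Cl-BBQ. All 4 TCDD arrays and 3 of 5 Cl-BBQ arrays lay above the highest vehicle array, replicate 1. The mean went from 5.73 ± 0.44 (SD, n = 4) to 6.49 ± 0.19 (SD, n = 4) with TCDD, 1.69-fold (log2 difference 0.76 ± 0.20 SE; limma, adjusted p = 0.0354), and to 6.50 ± 0.30 (SD, n = 5) with Cl-BBQ, 1.70-fold (log2 difference 0.77 ± 0.19 SE; limma, adjusted p = 0.0158). The TCDD call was lost without any one of 7 arrays, vehicle replicates 2, 3 and 4 or any TCDD replicate, the highest adjusted p being 0.110 without vehicle replicate 3. The Cl-BBQ call was lost without vehicle replicate 3 (adjusted p = 0.0618) or replicate 4 (adjusted p = 0.0591).

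Ccl3 was above the floor on 10 of 13 arrays, while the other members were above it on all 13. Its log2 expression was 5.35, 4.11, 5.52 and 4.16 with vehicle, 5.81, 4.24, 4.90 and 5.71 with TCDD, and 4.81, 6.39, 6.11, 5.78 and 6.12 with Cl-BBQ. The vehicle and TCDD ranges overlapped widely, and 4 of 5 Cl-BBQ arrays lay above all vehicle arrays. The mean was 4.78 ± 0.75 (SD, n = 4) with vehicle and 5.17 ± 0.74 (SD, n = 4) with TCDD, a log2 difference of 0.38 (95% interval -0.51 to 1.28; limma, adjusted p = 0.720), which ran from 0.16 without vehicle replicate 2 to 0.69 without TCDD replicate 2. With Cl-BBQ it was 5.84 ± 0.62 (SD, n = 5), a log2 difference of 1.06 (95% interval 0.21 to 1.91; limma, adjusted p = 0.116). Without Cl-BBQ replicate 1, Ccl3 was called too (log2 difference 1.32; limma, adjusted p = 0.0333), so that all 4 members were then called higher with Cl-BBQ. The standard error of its TCDD difference was larger than that of 99.5% of tested genes, against 97.5% for Ccl4, 92.1% for Ccl5 and 88.0% for Xcl1.

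**Figure D1:**
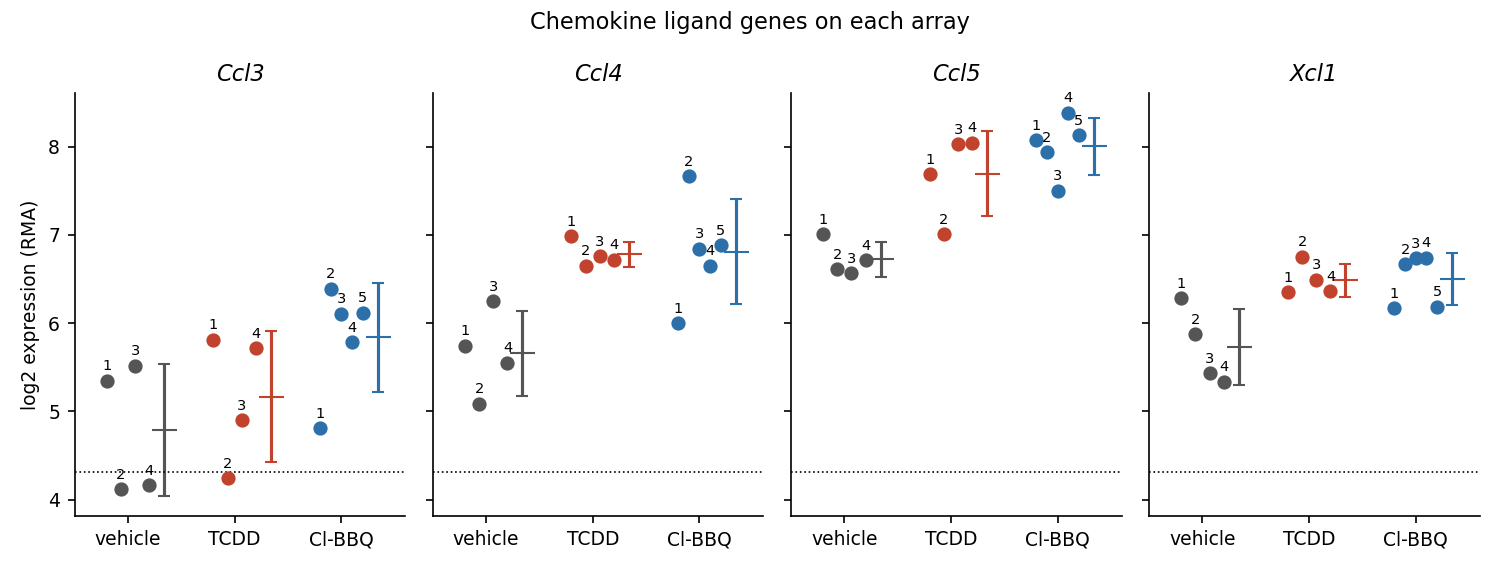
Log2 expression (RMA, vertical axis) of Ccl3, Ccl4, Ccl5 and Xcl1 on each array, by group; numbers are replicate numbers, the bar beside each group is its mean with SD (n = 4, 4 and 5), and the dotted line is the floor of 4.31. All treated arrays lie above all vehicle arrays for Ccl5, all TCDD arrays lie above all vehicle arrays for Ccl4 and Xcl1, and the groups overlap for Ccl3.

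All arrays of the TCDD group lay above all vehicle arrays for 3 of the 4 members, where 6.31% of tested genes had that order. All Cl-BBQ arrays lay above all vehicle arrays for Ccl5 alone, where 6.08% of tested genes had that order. By size of the log2 difference among 12710 tested genes, Ccl4 ranked 81, Ccl5 116, Xcl1 201 and Ccl3 739 with TCDD. With Cl-BBQ, Ccl5 ranked 94, Ccl4 117, Ccl3 148 and Xcl1 261. The called members therefore lay in the upper tail of both comparisons, beyond the level of 0.41 (TCDD) and 0.48 (Cl-BBQ) that 95% of tested genes did not exceed.

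**Figure D2:**
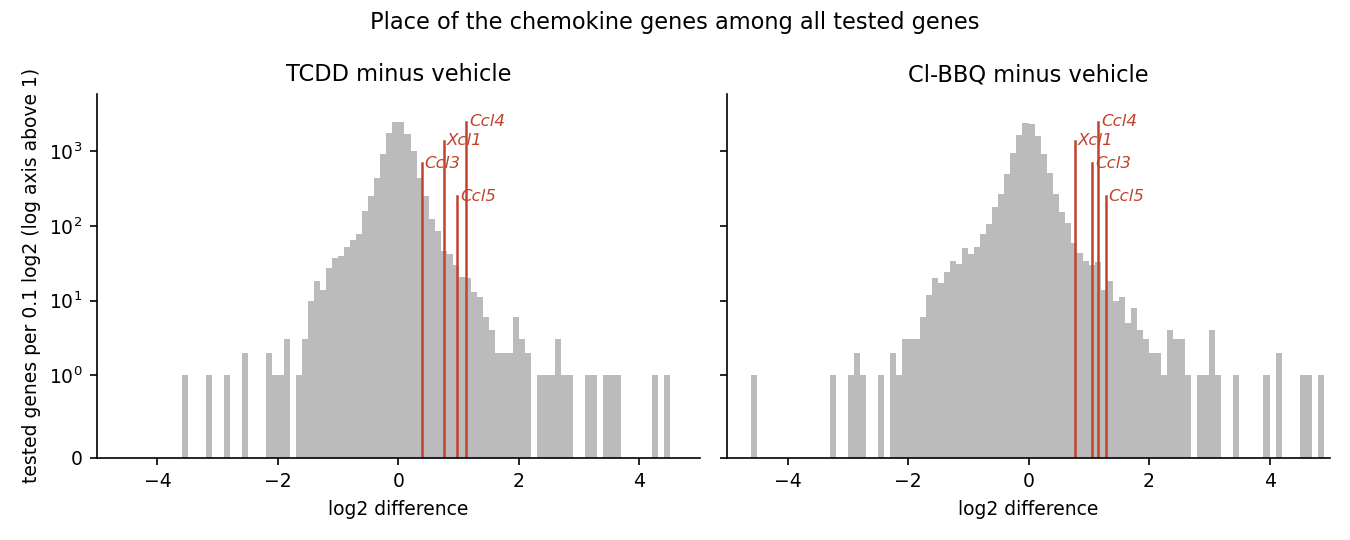
Number of tested genes per 0.1 of log2 difference (grey bars; the vertical axis is logarithmic above 1) for TCDD minus vehicle and Cl-BBQ minus vehicle, with the differences of the 4 chemokine genes as red lines, whose heights only separate the names. With TCDD, Ccl4, Ccl5 and Xcl1 lie right of the bulk at 0.76 to 1.12, and Ccl3, at 0.38, lies at its right edge. With Cl-BBQ the 4 genes lie right of it at 0.77 to 1.28.

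The groups given the 2 ligands, which differ in dose and schedule, were compared directly as well. No member was called (limma; smallest unadjusted p among the members 0.111, for Ccl3), where 3 of 12710 tested genes, 0.0236%, were called. Those 3 genes, looked up after the count was seen, were Gzma, the interleukin 7 receptor gene Il7r and the AhR target gene Nqo1, all higher with Cl-BBQ. The count fell to 0 without any one TCDD replicate, without vehicle replicate 4, or without Cl-BBQ replicate 2, 3 or 5. The mean of each member was higher with Cl-BBQ, by 0.67 on the log2 scale for Ccl3 (95% interval -0.18 to 1.52), 0.31 for Ccl5 (-0.14 to 0.76), 0.03 for Ccl4 (-0.55 to 0.61) and 0.01 for Xcl1 (-0.40 to 0.42). For Xcl1 the interval leaves out differences of more than 1.34-fold in favour of Cl-BBQ, and for Ccl3 it reaches 2.88-fold. These intervals do not show that the 2 regimens act alike. Without TCDD replicate 2 the difference was 0.37 for Ccl3 and 0.084 for Ccl5. For Ccl4 it was -0.18 without Cl-BBQ replicate 2, and it changed sign without 1 array in 2 cases for Ccl4 and 5 for Xcl1. With all arrays the order of the group means was vehicle, TCDD, Cl-BBQ for every member, and TCDD and Cl-BBQ did not differ beyond their spread for any of them.

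**Figure D3:**
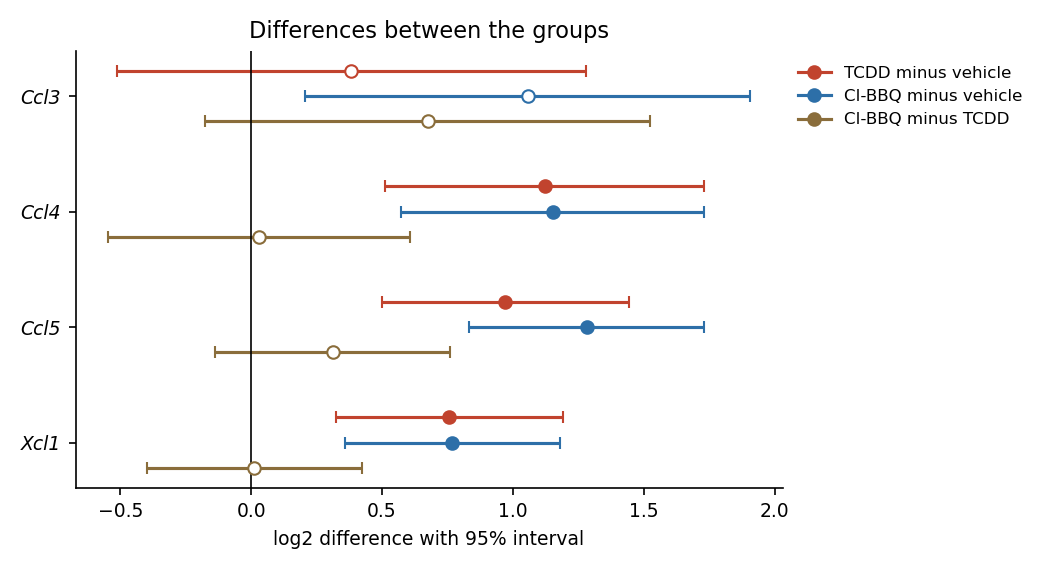
Log2 differences of the 4 chemokine genes with 95% intervals from limma (horizontal axis) for the 3 comparisons; filled points were called at an adjusted p under 0.05 and open points were not. Ccl4, Ccl5 and Xcl1 are filled in both comparisons with vehicle, Ccl3 in neither, and the comparison of the ligands has no filled point.

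The members also varied from array to array within groups, and Ccl3 and Ccl4 did so together. Over the 13 arrays, the deviations of Ccl3 and Ccl4 from their group means correlated at r = 0.77, while those of the other 5 pairs of members lay between -0.12 and 0.26. These values are descriptions of 13 arrays that share 3 groups. Cl-BBQ replicate 2 was the highest of all arrays for both Ccl3 and Ccl4 and was ranked 8 for Ccl5 and 10 for Xcl1, counted from the lowest. Cl-BBQ replicate 1 was the lowest Cl-BBQ array for Ccl3, Ccl4 and Xcl1 and ranked 11 of 13 for Ccl5. Vehicle replicate 2 was the lowest array for Ccl3 and Ccl4. Whether the probe sets of these neighbouring genes share sequence was not tested.

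**Figure D4:**
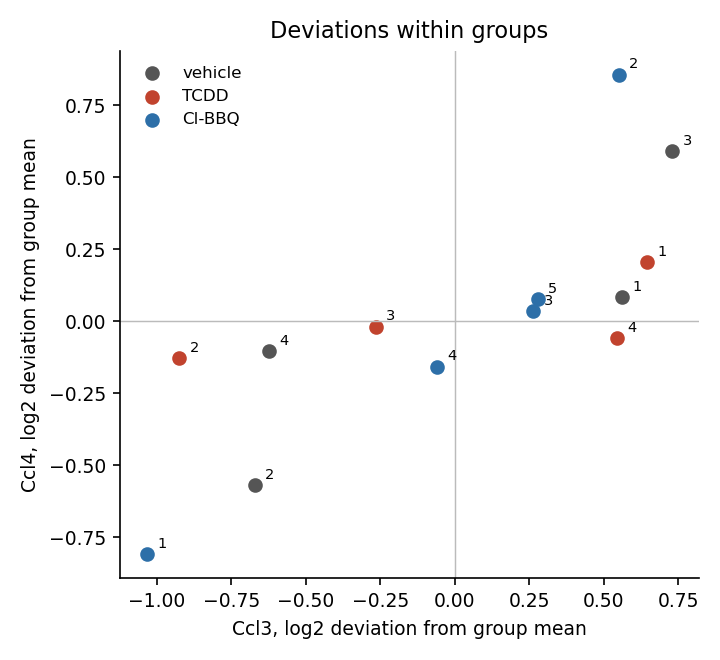
Deviation of each array from its group mean for Ccl3 (horizontal axis) and Ccl4 (vertical axis), both in log2 units; colours are groups and numbers are replicates. Arrays high for Ccl3 tend to be high for Ccl4 (r = 0.77 over 13 arrays), and Cl-BBQ replicate 1 is lowest for both.

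Among tested genes outside the members, those whose pattern over the 13 arrays was most like a member were found by Pearson correlation. These genes were picked for a high r, so their r values are high by choice and are given as a description only. For Ccl4 they were Sntb1, a syntrophin adaptor (r = 0.91), Slamf7, a receptor of the SLAM family on cytotoxic lymphocytes (r = 0.90), and Acpp, an acid phosphatase (r = 0.90). Slamf7 rose by 1.76 ± 0.18 SE on the log2 scale with TCDD and by 1.61 ± 0.17 SE with Cl-BBQ, and all 3 genes were called in both comparisons with vehicle. For Ccl5 they were Lfng, a glycosyltransferase that modifies Notch receptors (r = 0.91), Foxo1, a transcription factor of resting T cells (r = 0.91), and the lysosomal membrane gene Cln3 (r = 0.91). For Xcl1 they were Ubxn11 (r = 0.93), Pofut2 (r = 0.92) and Tmem208 (r = 0.91), and for Ccl3 Myadml2 (r = 0.93), Rpp21 (r = 0.88) and Slk (r = 0.85). Myadml2 averaged 4.24 over all arrays, below the floor of 4.31, and exceeded the floor on 7 of 13 arrays. The 3 genes most like Ccl3 were called in neither comparison, and their deviations from group means correlated with those of Ccl3 at r between 0.80 and 0.93. The same within-group r lay between 0.73 and 0.80 for the genes named for Ccl4, between 0.56 and 0.66 for those of Ccl5 and between 0.79 and 0.92 for those of Xcl1. For each gene named for Ccl4, Ccl5 and Xcl1 it was below the r over all arrays, by most for those of Ccl5. The r over all arrays of those genes therefore includes shared differences between groups. This did not hold for Myadml2, named for Ccl3, whose within-group r (0.933) was not below its r over all arrays (0.931).

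No receptor gene analysed here passed the test. Of 5 receptor genes with a probe set, Ccr1, Ccr3, Xcr1 and the atypical receptor Ackr1 were below the floor on all 13 arrays. The scavenging receptor Ackr2 was above the floor on all arrays and differed by 0.17 ± 0.15 SE with TCDD (limma, adjusted p = 0.623) and 0.17 ± 0.14 SE with Cl-BBQ (adjusted p = 0.538).

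Other chemokine ligand genes did not pass in either comparison. Of 31 listed, 29 had a probe set and 9 were tested, being above the floor on 4 or more arrays (Cxcl1 on 8 of 13). None of these 9 was called with TCDD or Cl-BBQ (limma; 0 of 9 in each comparison at an unadjusted p under 0.05 as well), where 6.71% and 11.3% of tested genes were called. Their median log2 difference was 0.12 in each comparison, against 0.86 and 1.10 for the members. The levels of these 9 and of the called members were unlike. These 9 averaged between 4.36 (Cxcl1) and 5.53 (Ccl25) over all arrays, several of them close to the floor of 4.31. The called members averaged between 6.26 (Xcl1) and 7.51 (Ccl5), means that include their rise, and Ccl3 averaged 5.31, within the range of the 9. On vehicle arrays alone, Ccl4 averaged 5.66 and Xcl1 5.73, against 5.40 for Ccl25. Whether a rise of the members' size would be seen so near the floor was not tested. Ccl9, which lies between Ccl5 and the Ccl3 and Ccl4 pair, averaged 4.77 on vehicle, 4.89 on TCDD and 4.74 on Cl-BBQ arrays, and its neighbour Ccl6 was below the floor on all arrays.

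Of the cytokine genes listed because T cells secrete them beside these chemokines, 1 of 5 tested rose with each ligand. It was Il10, the suppressive cytokine, by 1.72 ± 0.15 SE on the log2 scale with TCDD and 1.80 ± 0.14 SE with Cl-BBQ. The share of all tested genes called higher was 3.21% with TCDD and 5.31% with Cl-BBQ. Ifng, encoding interferon gamma, differed by 0.36 ± 0.20 SE with TCDD (limma, adjusted p = 0.402) and by 0.61 ± 0.19 SE with Cl-BBQ (adjusted p = 0.0591), and was called with Cl-BBQ without vehicle replicate 1 (adjusted p = 0.00684) or Cl-BBQ replicate 3 (adjusted p = 0.0356). Tnf, encoding tumour necrosis factor, was at -0.03 and -0.07, and Il2, the T cell growth factor, at 0.20 and 0.83 in the same comparisons without passing, except Il2 with Cl-BBQ without vehicle replicate 3 (adjusted p = 0.0156).

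Of 12 granule and cytotoxic genes, all tested, 6 rose with TCDD and 7 with Cl-BBQ, and none fell. Over all tested genes, 3.21% were called higher with TCDD and 5.31% with Cl-BBQ, and 3.5% and 6.03% lower. Gzma, a granule protease, rose by 3.45 ± 0.18 SE and 4.66 ± 0.17 SE, Prf1, the pore-forming protein perforin, by 1.97 ± 0.26 SE and 2.31 ± 0.25 SE, and Nkg7, a granule membrane protein, by 1.96 ± 0.11 SE and 2.21 ± 0.11 SE. The differences of Gzma, Prf1 and Nkg7 were larger than those of every chemokine member. Ctsw, also called with both ligands, was at 1.08 with TCDD, below Ccl4 at 1.12. Srgn, the granule proteoglycan serglycin, was at 0.07 ± 0.08 SE and 0.06 ± 0.08 SE and was not called. Nor were Gzmk (0.20 and 0.01), Gzmm (0.29 and -0.03), Lamp1 (-0.04 and -0.08) and Unc13d (-0.17 and 0.003) called with either ligand. The seventh gene with Cl-BBQ was Rab27a, a regulator of granule docking (0.47 ± 0.13 SE; limma, adjusted p = 0.0269), whose call was lost without any one of 4 arrays, the highest adjusted p being 0.0940 without vehicle replicate 3.

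Among transcription factors of effector T cells, 3 of 12 tested rose and 1 fell with TCDD, and 5 rose and 1 fell with Cl-BBQ. The shares over all tested genes were 3.21% higher and 3.5% lower with TCDD, and 5.31% and 6.03% with Cl-BBQ. Runx3, a factor of the cytotoxic programme, rose by 0.62 ± 0.08 SE with TCDD and 0.86 ± 0.08 SE with Cl-BBQ, and Id2 (1.08 ± 0.14 SE and 1.18 ± 0.13 SE) and the repressor Prdm1 (1.02 ± 0.22 SE and 1.13 ± 0.21 SE) rose as well. Tbx21, the Th1 factor T-bet, was called with Cl-BBQ (0.64 ± 0.15 SE; limma, adjusted p = 0.00878) and was at 0.34 ± 0.15 SE with TCDD (adjusted p = 0.262). Stat4, which carries interleukin 12 signals, was called with Cl-BBQ (0.37 ± 0.09 SE; adjusted p = 0.0103) and was at 0.31 ± 0.09 SE with TCDD (adjusted p = 0.0654), where it was called without Cl-BBQ replicate 5 (adjusted p = 0.0458). Klf13, a factor that binds the Ccl5 promoter in T cells, was at 0.04 and -0.04. Irf4 fell with both ligands (-0.52 ± 0.14 SE and -0.54 ± 0.13 SE), a TCDD call that was lost without any one of 8 arrays, the highest adjusted p being 0.105 without TCDD replicate 4.

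**Figure D5:**
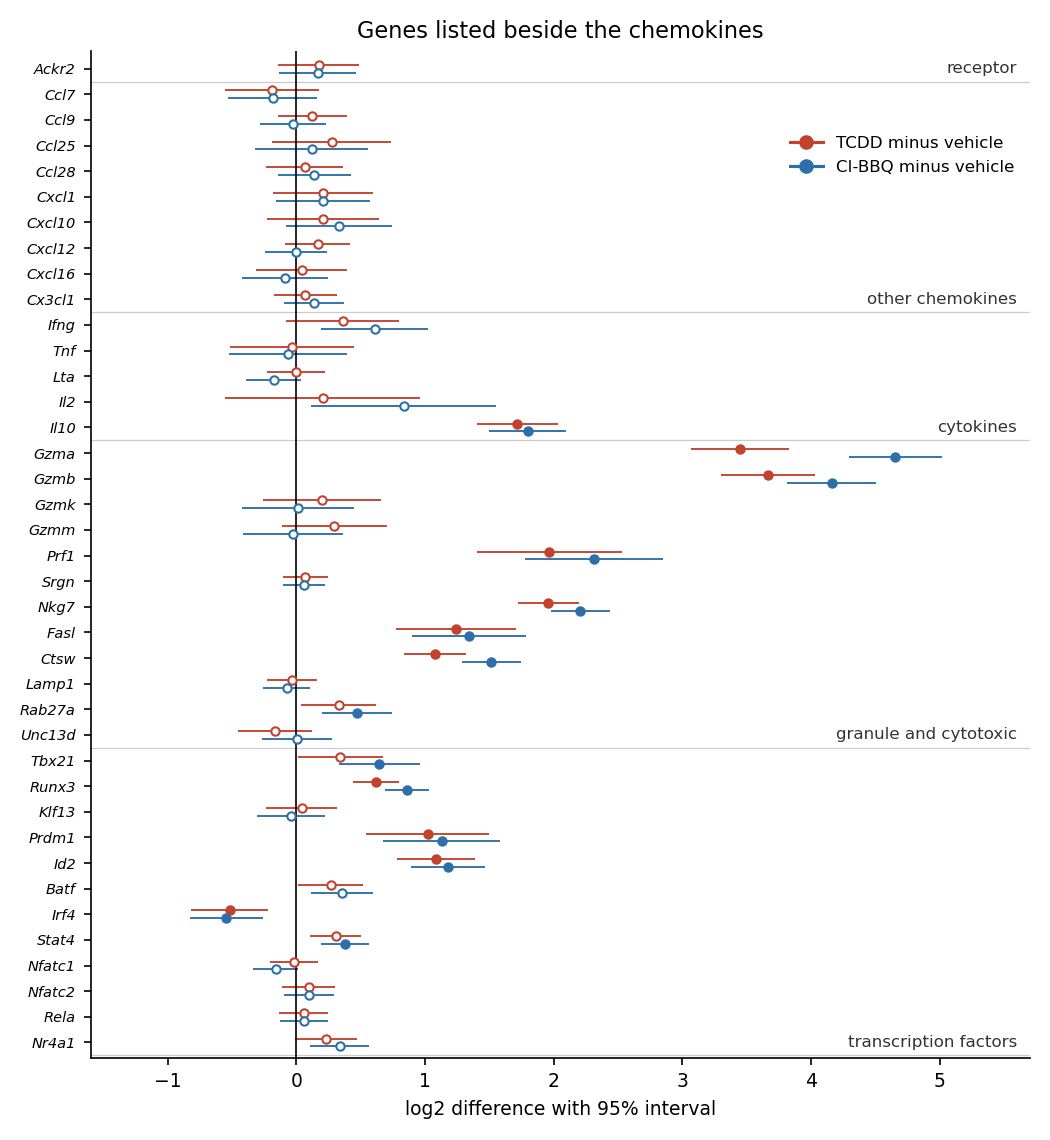
Log2 differences with 95% intervals (horizontal axis) of the tested genes in the 5 lists set beside the chemokines, for TCDD minus vehicle (red) and Cl-BBQ minus vehicle (blue); filled points were called. Il10, Gzma, Gzmb, Prf1, Nkg7, Fasl, Ctsw, Id2 and Prdm1 stand to the right in both comparisons, and the other chemokine ligands lie around 0.

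Cells other than CD4+ T cells also make these chemokines, so marker levels are given beside the members' rises. Of all tested genes, 6.71% were called in either direction with TCDD and 11.3% with Cl-BBQ. Of 8 macrophage and monocyte markers, 4 were tested and 1 was called, Cd68, higher by 0.79 ± 0.20 SE with TCDD and 0.64 ± 0.19 SE with Cl-BBQ, calls lost without any one of 5 and 7 arrays (highest adjusted p 0.0805 and 0.135, both without vehicle replicate 3). The other 3 tested were Csf1r (-0.17 and -0.18), Fcgr1 (-0.14 and -0.05) and C1qa (0.16 and 0.09). The mean log2 level of the list was 4.29 to 4.34 on vehicle arrays, 4.14 to 4.43 on TCDD arrays and 4.13 to 4.36 on Cl-BBQ arrays. Its summed level, in which bright genes such as Cd68 weigh most, was 7.59 to 7.91 on vehicle arrays, 7.83 to 8.46 on TCDD arrays and 7.96 to 8.16 on Cl-BBQ arrays. The natural killer cell list lay at 6.47 to 6.73, 6.09 to 6.72 and 6.18 to 6.63, with none of 2 tested markers called. Klrb1c was at -0.33 with TCDD and -0.50 with Cl-BBQ, where it was called lower without TCDD replicate 1 (limma, adjusted p = 0.0308) or Cl-BBQ replicate 4 (adjusted p = 0.0287), and Ncr1 was at 0.33 and 0.19. The CD8 T cell list lay at 6.76 to 7.07, 6.65 to 7.22 and 6.79 to 7.52, and neither Cd8a (0.58 and 0.60) nor Cd8b1 (-0.27 and 0.13) was called. The platelet list, cells that store Ccl5, lay at 5.84 to 6.04, 5.96 to 6.08 and 5.64 to 6.01. Of 7 CD4 T cell markers 1 was called, Thy1 (0.30 ± 0.08 SE with TCDD and 0.36 ± 0.07 SE with Cl-BBQ), with TCDD lost without any one of 7 arrays (highest adjusted p 0.103 without TCDD replicate 3). The dendritic cell list lay at 7.46 to 7.82, 7.51 to 7.76 and 7.07 to 7.88, and no tested marker of dendritic cells, B cells or neutrophils was called. The part of these markers in the chemokine differences was not tested.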

How the data were processed

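RNA of the sorted donor CD4+ T cells was labelled with biotin after oligo-dT priming, per the labels' protocols, and measured on 13 arrays. The deposited table holds log2 expression for 41345 probe sets, made by the authors with RMA (background correction, quantile normalization, probe summary), per the submitters' processing notes; for its version, annotation and genome build the sources used here give nothing. Quantile normalization hides any change common to all transcripts. Of 25335 annotated probe sets, 23521 named 1 symbol and 1814 named several; 16010 were unnamed here. The brightest probe set by mean stood for each of 22180 genes. The tests covered the 12710 genes that exceeded a floor of 4.31 (the median over the table) on 4 or more arrays. Every one of the 4 chemokine genes had 1 probe set.

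One limma model (version 3.58.1, R 4.3.3; lmFit, eBayes) with 3 group means was fitted to all 13 arrays (10 residual and 4.22 prior degrees of freedom). The 3 contrasts were tested two-sided with Benjamini-Hochberg adjustment over all tested genes, with 0.05 as the threshold for a call. SE and 95% intervals come from this model. The pipeline was tested on simulated data. The number of arrays limits the precision of each value. The alternatives were the probe set rule, the filter on low values, the normalization, the arrays in the fit, the variance model, array weights, the replicate number as a block and leaving out each array.

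The members and the gene lists were chosen with earlier results of these data known. The text names the 4 members, listed genes with their result, and for each member the 3 tested genes with the highest correlation over the arrays. Listed genes without a probe set of a single symbol were not analysed here. Same-numbered arrays did not deviate together (12 pairs, r between -0.06 and 0.08), so the numbers were not used as a pairing.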

Additional observations from a re-analysis of the deposited data

How the results depend on the processing

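For the 4 chemokine genes, the direction with TCDD and with Cl-BBQ against vehicle held under all 87 alternatives of each comparison, and the side of the threshold under 69 and 82. With TCDD, Xcl1 was not called with no filter on low values (0.76, limma, adjusted p = 0.0634), where more genes are tested. Replicate numbers did not pair the arrays; with the replicate number as a block, Ccl4 (1.12, adjusted p = 0.0744) and Xcl1 (0.76, adjusted p = 0.0706) with TCDD and Ccl4 with Cl-BBQ (1.13, adjusted p = 0.0523) were not called, nor was Stat4 with Cl-BBQ (0.32, adjusted p = 0.0681), and no gene was called between the ligands. With array weights Ccl3 was called with Cl-BBQ (1.36, adjusted p = 0.0246). Leaving out each array in turn gave, with TCDD, 0.16 to 0.69 for Ccl3, 0.93 to 1.32 for Ccl4, 0.85 to 1.198 for Ccl5 and 0.63 to 0.94 for Xcl1, and with Cl-BBQ 0.83 to 1.32 for Ccl3 and 0.64 to 0.95 for Xcl1. Between the ligands it gave -0.18 to 0.23 for Ccl4 and -0.048 to 0.10 for Xcl1, which changed sign, 0.37 to 0.93 for Ccl3 and 0.084 to 0.44 for Ccl5. Genes called between the ligands numbered 0 (no filter, 1266 at an unadjusted p under 0.05; 2 groups alone, 785; block, 781), 5 (mean of probe sets), 6 (repeated quantile normalization; trend and robust), 7 (stricter filter; array weights) and 0 to 5 without 1 array. Ccl3 had no value under the stricter filter. The cause of these changes was not tested.

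Over the 78 results of other named genes, 1614 alternatives kept direction and side of the threshold, 52 lost a call, 17 gained one and 21 changed sign. The last were Tnf (array weights 0.027 with TCDD; without 1 array -0.17 to 0.10 with TCDD and -0.22 to 0.071 with Cl-BBQ), Il2 with TCDD (-0.20 to 0.57), Cd4 (-0.022 to 0.096 with TCDD and -0.021 to 0.097 with Cl-BBQ), Slk with TCDD (equal medians -0.020; -0.094 to 0.11), Ccl9 with Cl-BBQ (block 0.0097; -0.074 to 0.026) and Klf13 with Cl-BBQ (array weights 0.031; -0.094 to 0.078).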
